A study of Homo sapiens with 6 samples.

Results

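LAMA3, LAMB3 and COL17A1 encode the alpha 3 and beta 3 chains of the laminin LM332 and the transmembrane collagen XVII. They were taken by gene symbol from the deposited table of NCI-H292 genes that differed between mitoxantrone and DMSO, and are 3 of its 1305 genes. NCI-H292 is an established human lung cancer cell line of epithelial origin. Mitoxantrone is an anthracenedione that poisons type II topoisomerases and so breaks DNA, and the title of the series places the work in a study of senescence, a lasting arrest of cell division. RNA was sequenced from 3 libraries of cells kept for 48 hours with 50 nM mitoxantrone and from 3 libraries of cells kept for 48 hours with the solvent DMSO at 1 in 1000. All libraries came from 1 cell line, and the labels do not give separate cultures for the replicates, so the spread between them may be technical.

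LM332, which was once called laminin 5, is a secreted heterotrimer of an alpha, a beta and a gamma chain. It lies in the basement membrane beneath stratified and airway epithelia, where it binds the integrins alpha 6 beta 4 and alpha 3 beta 1 of the overlying cell. Collagen XVII, also called BP180, spans the membrane of the basal cell and joins LM332 outside to plectin and keratin filaments inside, and these proteins together form the hemidesmosome. Inherited loss of LAMA3, LAMB3 or COL17A1 causes junctional epidermolysis bullosa, in which the epidermis detaches.

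The libraries held 14762544 to 15663327 assigned reads with mitoxantrone and 15789357 to 17817758 with DMSO. The deposited table is itself a selection: the smallest log2 fold change in the authors' deposited table was 1.0 in either direction and the highest adjusted p was 0.043, out of 18313 genes that the authors had tested. Genes outside it were not analysed here. Of the listed genes, 92% passed a Benjamini-Hochberg adjusted p of 0.05 in edgeR's quasi-likelihood test, with 740 (56.7%) higher and 461 (35.3%) lower with mitoxantrone. Size factors taken from this selected table alone shifted the median log2 fold change of all listed genes by -0.69 (TMM) or -0.99 (DESeq2), with 366 higher against 512 lower and 219 higher against 512 lower. Every gene behind these factors had been selected as changed between the groups, so they hold no unchanged genes to scale by. Of 7 epithelial marker genes, KRT8 and KRT18 were listed, at 1003 to 1183 and 830 to 1007 FPKM (fragments per kilobase of gene, scaled to the reads of the library) with mitoxantrone and 375 to 468 and 358 to 489 FPKM with DMSO, and of 4 immune markers none was listed. The fibroblast marker COL1A1 was at 0.73 to 1.02 FPKM with mitoxantrone and 1.83 to 2.61 FPKM with DMSO. The endothelial marker CDH5 was at 1.93 to 2.42 FPKM with mitoxantrone and 3.98 to 5.68 FPKM with DMSO, and the mucous cell regulator SPDEF at 0.18 to 0.46 FPKM with mitoxantrone and 0.83 to 1.39 FPKM with DMSO. The part of these markers in the members' values was not tested.

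All 3 members were 3.17-fold to 5.19-fold higher with mitoxantrone, and COL17A1 had the largest fold change among them. Their presence in the table already fixes that they differ, so the fold changes and p-values below give sizes and are not independent evidence of a rise. The deposited p-values place COL17A1 at rank 14, LAMB3 at rank 30 and LAMA3 at rank 91 of the 18313 genes, as implied by the ratio of p to adjusted p in the authors' deposited table. For all 3 members every mitoxantrone library lay above every DMSO library, as it did for 60.1% of the listed genes, and 98.6% of the listed genes had groups that did not overlap in one direction or the other. Since the table was selected on this contrast, nothing is read from these shares.

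LAMA3 (ENSG00000053747) lies on chromosome 18 (21269407 to 21535030, plus strand), LAMB3 (ENSG00000196878) on chromosome 1 (209788215 to 209825811, minus strand) and COL17A1 (ENSG00000065618) on chromosome 10 (105791044 to 105845760, minus strand), in the deposited coordinates, whose genome build is not given in the sources used here. The promoter windows of the 3 genes span 250 bases before to 50 bases after a RefSeq start site on GRCh38.p14. The 3 genes lie on different chromosomes and were all higher with mitoxantrone, in a table selected for genes that differ. Whether they share a regulator was not tested. RefSeq gave 1 window for LAMA3 (chr18:23872770-23873069, plus strand), 3 for LAMB3 and 1 for COL17A1 (chr10:104085831-104086130, minus strand). Of the 3 LAMB3 windows the innermost is shown (chr1:209651325-209651624, minus strand), the only 1 of them that held the motif marked below. Capitals mark the letters TGANTCA, the core motif bound by AP-1 (dimers of FOS and JUN proteins), which reads the same on both strands.
LAMA3: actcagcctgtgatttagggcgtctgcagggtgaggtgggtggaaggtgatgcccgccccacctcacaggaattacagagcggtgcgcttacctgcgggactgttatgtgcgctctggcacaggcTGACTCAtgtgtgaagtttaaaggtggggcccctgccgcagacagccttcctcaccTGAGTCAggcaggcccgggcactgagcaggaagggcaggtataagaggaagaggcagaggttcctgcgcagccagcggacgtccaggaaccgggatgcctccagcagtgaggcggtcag
LAMB3: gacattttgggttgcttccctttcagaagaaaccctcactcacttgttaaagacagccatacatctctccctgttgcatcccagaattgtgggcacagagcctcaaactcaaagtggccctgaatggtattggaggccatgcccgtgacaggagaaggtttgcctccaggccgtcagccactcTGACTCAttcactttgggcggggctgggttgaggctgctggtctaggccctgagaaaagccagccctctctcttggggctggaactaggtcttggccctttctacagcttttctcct
COL17A1: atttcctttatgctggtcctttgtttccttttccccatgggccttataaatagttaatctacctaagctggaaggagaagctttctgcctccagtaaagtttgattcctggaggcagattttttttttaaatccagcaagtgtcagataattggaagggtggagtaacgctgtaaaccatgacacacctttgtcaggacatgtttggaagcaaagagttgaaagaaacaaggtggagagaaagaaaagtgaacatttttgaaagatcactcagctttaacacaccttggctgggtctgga

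The LAMA3 window held the motif 2 times, starting 125 and 69 bases before the start site. The innermost LAMB3 window held it 1 time, 67 bases before the start site, and the other 2 LAMB3 windows (chr1:209652376-209652675 and chr1:209652280-209652579, minus strand) and the COL17A1 window held no match. Among 35116 RefSeq promoter windows of this length 7.71% held at least 1 match and 0.515% held 2 or more, and among the 1149 windows of listed genes 9.83% held at least 1. The GC box letters GGGCGG, searched on both strands and free to overlap other motifs, were present in the LAMA3 window and in all 3 LAMB3 windows and not in that of COL17A1, against 45.0% of all windows. The TATA box letters TATAAA were present in the COL17A1 window, at position -206 from the start site, and not in the others, against 11.5% of all windows, and the letters GGAATG, bound by TEAD proteins, were in none, against 14.0%. A match is a run of letters and does not show that a factor was bound there.

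LAMA3 encodes the alpha 3 chain, whose globular end binds the integrins. The 3 mitoxantrone libraries had 47.3, 59.8 and 62.3 FPKM of LAMA3, and the 3 DMSO libraries had 18.0, 10.3 and 15.1 FPKM. Mitoxantrone replicate 1 was the lowest of its group and DMSO replicate 2 the lowest of all. In reads divided by the authors' size factors (normalized reads) LAMA3 averaged 12426 ± 1513 with mitoxantrone and 3022 ± 719 with DMSO (SD, n = 3 each). The log2 fold change was 2.04 with a standard error (SE) of 0.18 (edgeR quasi-likelihood test, adjusted p = 1.2e-06).

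LAMB3 encodes the beta 3 chain, which is assembled with the alpha 3 chain into LM332. It was the most abundant member per unit length, at 264, 298 and 304 FPKM in the mitoxantrone libraries and 95.3, 93.0 and 98.7 FPKM in the DMSO libraries. The DMSO libraries lay close together, and here DMSO replicate 2 did not stand apart from them in normalized reads (6756, 7096 and 7062). LAMB3 averaged 22066 ± 1227 normalized reads with mitoxantrone and 6972 ± 187 with DMSO (SD, n = 3 each), a log2 fold change of 1.66 (SE 0.14, edgeR quasi-likelihood test, adjusted p = 8.5e-07).

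COL17A1 encodes collagen XVII, a collagen that is anchored in the membrane and whose outer part is shed by proteases. It was at 134, 160 and 168 FPKM in the mitoxantrone libraries and at 34.1, 25.8 and 33.8 FPKM in the DMSO libraries. Mitoxantrone replicate 1 and DMSO replicate 2 were again the lowest of their groups. COL17A1 averaged 16136 ± 1505 normalized reads with mitoxantrone and 3108 ± 357 with DMSO (SD, n = 3 each). Its log2 fold change of 2.38 had an SE of 0.16 (edgeR quasi-likelihood test, adjusted p = 5.4e-08).

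**Figure D1:**
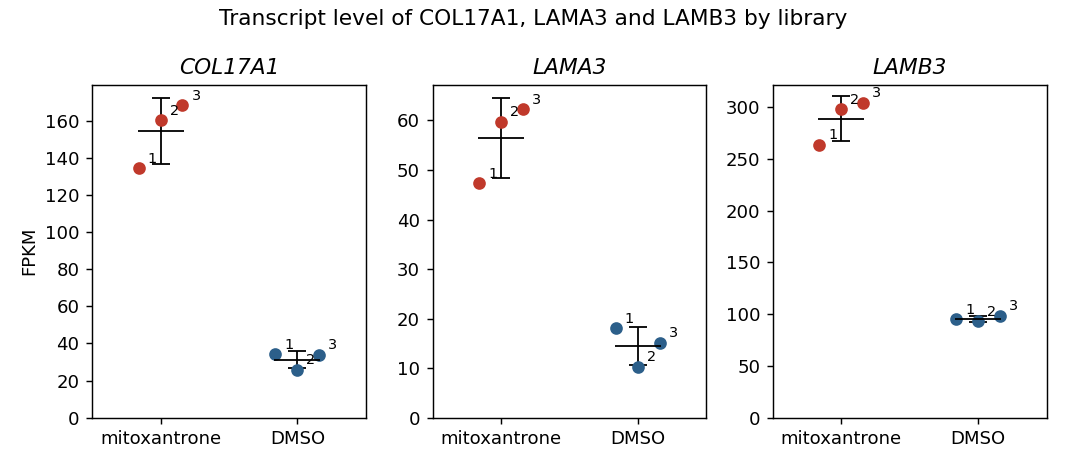
FPKM of COL17A1, LAMA3 and LAMB3 in each library, with points numbered by replicate, a bar at the mean and whiskers of 1 SD (n = 3 per group). Mitoxantrone libraries lie above DMSO libraries for each gene, with LAMA3 at 47.3 to 62.3 FPKM with mitoxantrone and 10.3 to 18.0 FPKM with DMSO.

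Together the 3 members took 0.311% ± 0.0324 of assigned reads with mitoxantrone and 0.0845% ± 0.00911 with DMSO (SD, n = 3 each). Per unit length, the order of the members' levels was LAMB3, COL17A1 and LAMA3 in both groups, and no 2 neighbours in that order overlapped within a group. The place of LAMA3 depends on the length used. The deposited length of 13522 bases exceeds that of every LAMA3 protein-coding transcript in the basic GENCODE 29 set, of which 2 start 183.4 and 183.6 kb downstream of the first start site and are 5671 and 5007 bases long. The RefSeq window above covers both of these downstream start sites. With 5671 bases, LAMA3 would be at 135 ± 19.1 FPKM with mitoxantrone and 34.5 ± 9.35 with DMSO (SD, n = 3 each). COL17A1, at its deposited length of 6426 bases, was at 154 ± 17.6 and 31.2 ± 4.72 (SD, n = 3 each). The libraries of these 2 genes would then overlap within each group. The deposited lengths of COL17A1 and LAMB3 (4688 bases) also exceed their longest such transcripts, of 5689 and 4305 bases. These 2 genes were not rescaled, so the order of the members at transcript lengths was not tested. Gene-level reads do not show which transcripts were made, and the fold change does not depend on the length.

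The members were at places 6 (LAMB3), 14 (COL17A1) and 15 (LAMA3) of 1305 by mean normalized reads. Reads grow with gene length, and by mean FPKM they stood at places 13 (LAMB3), 30 (COL17A1) and 74 (LAMA3). By fold change they stood lower, at places 217 (COL17A1), 305 (LAMA3) and 434 (LAMB3) of the 793 genes with a positive log2 fold change. The median log2 fold change was 2.04 over the 3 members, 1.74 over those 793 genes and 1.26 over all listed genes. Of the 15 listed genes with at least the mean reads of LAMA3, a level chosen after the values were seen, 14 were higher with mitoxantrone. By log2 fold change CDKN1A, the cell cycle inhibitor p21, came first at 2.55, all 3 members stood among the 5 highest, and KRT8 followed at place 6 with 1.48.

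Whether the members changed by the same factor was tested on the log2 ratio of normalized reads in each library, for 3 pairs. The log2 ratio of COL17A1 to LAMB3 was -0.52, -0.44 and -0.40 in the mitoxantrone libraries and -1.03, -1.40 and -1.09 in the DMSO libraries. The groups did not overlap, and the difference was 0.72 with a standard error of 0.12 (two-sided exact permutation test, p = 0.10, which is the smallest that 3 against 3 allows, and 0.15 adjusted over the 3 pairs). This test cannot reach 0.05 with 3 libraries against 3.

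The ratio of COL17A1 to LAMA3 also did not overlap between the groups, with log2 values of 0.43, 0.35 and 0.36 with mitoxantrone and -0.15, 0.26 and 0.09 with DMSO. That difference was 0.32 with a standard error of 0.12 (two-sided exact permutation test, p = 0.10, adjusted p = 0.15), and 0.21 without DMSO replicate 1. For LAMA3 to LAMB3 the log2 ratios were -0.95, -0.79 and -0.76 with mitoxantrone and -0.88, -1.65 and -1.18 with DMSO, so the groups overlapped. The difference of 0.40 had a standard error of 0.23 (two-sided exact permutation test, p = 0.20, adjusted p = 0.20) and was 0.19 without DMSO replicate 2.

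**Figure D2:**
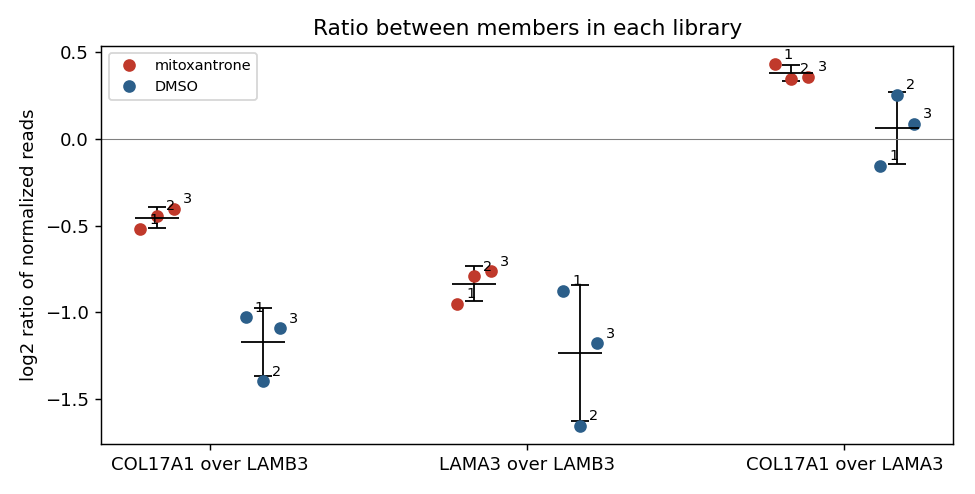
Log2 ratio of normalized reads between members in each library, with points numbered by replicate, a bar at the mean and whiskers of 1 SD (n = 3 per group). COL17A1 over LAMB3 is at -0.52 to -0.40 with mitoxantrone and at -1.40 to -1.03 with DMSO, while LAMA3 over LAMB3 overlaps between the groups.

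Mitoxantrone replicate 1 and DMSO replicate 2, the lowest of their groups for LAMA3 and COL17A1, were low for the longest genes. Among listed genes with at least 100 mean normalized reads, and as medians on the log2 scale, mitoxantrone replicate 1 was 0.17 above the other 2 libraries of its group in the shortest length class (273 to 2761 bases) and was at -0.18 against them in the longest (6466 to 32477 bases). DMSO replicate 2 was at 0.35 in the shortest class and at -0.25 in the longest. LAMA3, with 13522 bases, was at -0.32 in mitoxantrone replicate 1 and -0.59 in DMSO replicate 2 against the other libraries of the group, and COL17A1, with 6426 bases, at -0.24 and -0.30. COL17A1 and LAMB3 belong to the third class (4108 to 6437 bases), whose medians were -0.03 in mitoxantrone replicate 1 and -0.05 in DMSO replicate 2, so COL17A1 lay further below than its class. LAMB3, with 4688 bases, was at -0.14 in mitoxantrone replicate 1 and 0.04 in DMSO replicate 2. The part of this pattern in the ratios between members was not tested. Without both libraries, a choice made after the data were seen, the log2 fold changes were 1.97 for LAMA3, 1.72 for LAMB3 and 2.36 for COL17A1.

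**Figure D3:**
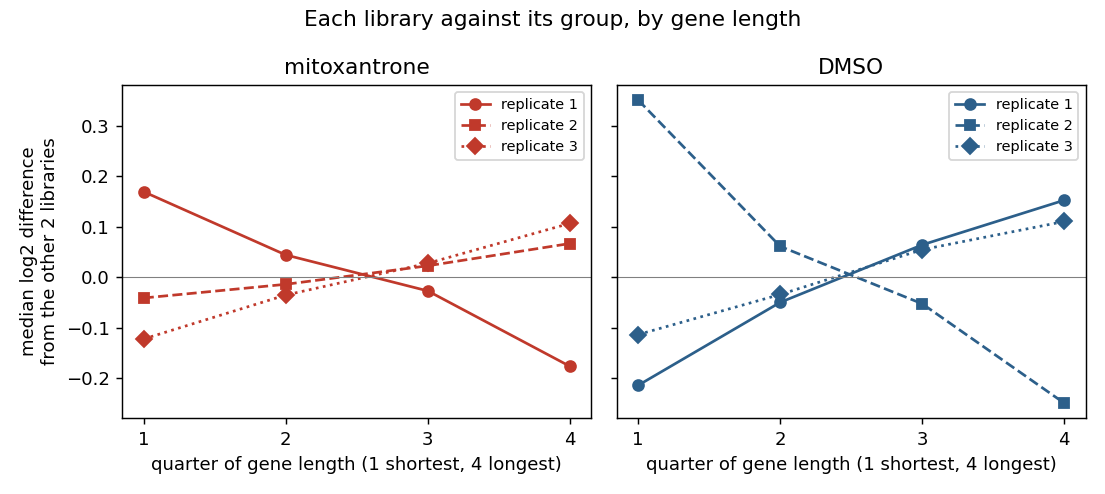
Median log2 difference of each library from the other 2 libraries of its group, in 4 classes of gene length, with 141 listed genes of at least 100 mean normalized reads in each class. Mitoxantrone replicate 1 is at 0.17 in the shortest length class and -0.18 in the longest, and DMSO replicate 2 at 0.35 and -0.25.

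Of 10 hemidesmosome genes, 4 were listed, as were 1305 of the 18313 tested genes. All 4 were called as higher, against 56.7% of all listed genes. Of these 4, 3 are the members themselves, and the other was PLEC, which encodes plectin, the linker between the inner plaque and keratin filaments. PLEC had 68.5, 107 and 112 FPKM with mitoxantrone and 52.9, 26.2 and 47.6 FPKM with DMSO. Its log2 fold change of 1.26 (SE 0.23, edgeR quasi-likelihood test, adjusted p = 0.0011) equalled the median of 1.26 over all listed genes. PLEC is 16985 bases long, and it was at -0.63 in mitoxantrone replicate 1 and -0.84 in DMSO replicate 2 against the other libraries of the group. With size factors over the listed genes its adjusted p was 0.33 (TMM) or 1 (DESeq2).

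Of 11 laminin chain genes, the members LAMA3 and LAMB3 were listed and rose, and the other 9 were not listed. Of 10 genes for receptors of laminin and collagen XVII, ITGA2 and SDC4 were listed and both rose, against 56.7% of all listed genes called as higher. ITGA2, the alpha 2 integrin chain of a collagen and laminin receptor, had 44.2, 59.6 and 65.8 FPKM with mitoxantrone and 21.0, 10.95 and 14.7 FPKM with DMSO, a log2 fold change of 1.94 (SE 0.20, edgeR quasi-likelihood test, adjusted p = 5.5e-06). SDC4, the heparan sulfate proteoglycan syndecan 4, had 158, 153 and 157 FPKM with mitoxantrone and 68.2, 74.9 and 66.8 FPKM with DMSO, a log2 fold change of 1.22 (SE 0.14, edgeR adjusted p = 1.2e-05). The groups did not overlap for either gene, nor did they for 98.6% of all listed genes. The SDC4 call was lost with DESeq2 size factors over the listed genes (edgeR, adjusted p = 1).

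LM332 is trimmed by proteases after secretion, and the ectodomain of collagen XVII is shed. Of 16 genes tied to these steps, 4 were listed, of which 3 rose and 1 did not pass the test. Over all listed genes 56.7% were called as higher. PLAT, the tissue plasminogen activator, had 15.5, 15.5 and 14.9 FPKM with mitoxantrone and 3.20, 2.81 and 3.27 FPKM with DMSO (log2 fold change 2.37, SE 0.13, edgeR quasi-likelihood adjusted p = 1.9e-08). PLAU, the urokinase plasminogen activator, had 30.3, 27.8 and 30.2 FPKM with mitoxantrone and 6.57, 7.54 and 6.45 FPKM with DMSO (log2 fold change 2.17, SE 0.14, edgeR quasi-likelihood adjusted p = 5.3e-08). Both genes convert plasminogen to plasmin, and their libraries were tight within each group.

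HPN, the membrane serine protease hepsin, had 4, 8 and 7 reads with mitoxantrone and 0 in each DMSO library. Against a floor of 3 reads over the DMSO group it was at least 7.47-fold higher with mitoxantrone (edgeR quasi-likelihood test, adjusted p = 0.0067, and 0.053 with DESeq2 factors over the listed genes). MMP9, the gelatinase B, had 7, 9 and 11 reads with mitoxantrone and 3, 4 and 1 with DMSO and was not called (log2 fold change 1.94, SE 0.61, edgeR adjusted p = 0.085). The adjusted p of MMP9 was 0.047 without DMSO replicate 2 in edgeR, 0.028 with limma on FPKM at either pseudocount, and 0.0061 in edgeR when adjusted over the listed genes alone.

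Of 24 basement membrane genes only COL15A1 was listed. This collagen of the basement membrane zone had 85, 60 and 52 reads with mitoxantrone and 37, 19 and 17 with DMSO, and it rose by a log2 fold change of 1.69 (SE 0.31, edgeR quasi-likelihood test, adjusted p = 0.0016). Its call was lost with size factors over the listed genes, with an adjusted p of 0.12 (TMM) or 0.82 (DESeq2) in edgeR. Over the hemidesmosome, laminin, receptor, processing and basement membrane lists together, 11 of 67 genes were listed, as were 1305 of the 18313 tested genes. The 3 members are among the 11 and were taken from the listed genes, so their listing was fixed in advance. Of the 11, 10 were called as higher and none as lower, against 56.7% and 35.3% of all listed genes. With DESeq2 size factors over the listed genes 6 of the 11 were called.

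**Figure D4:**
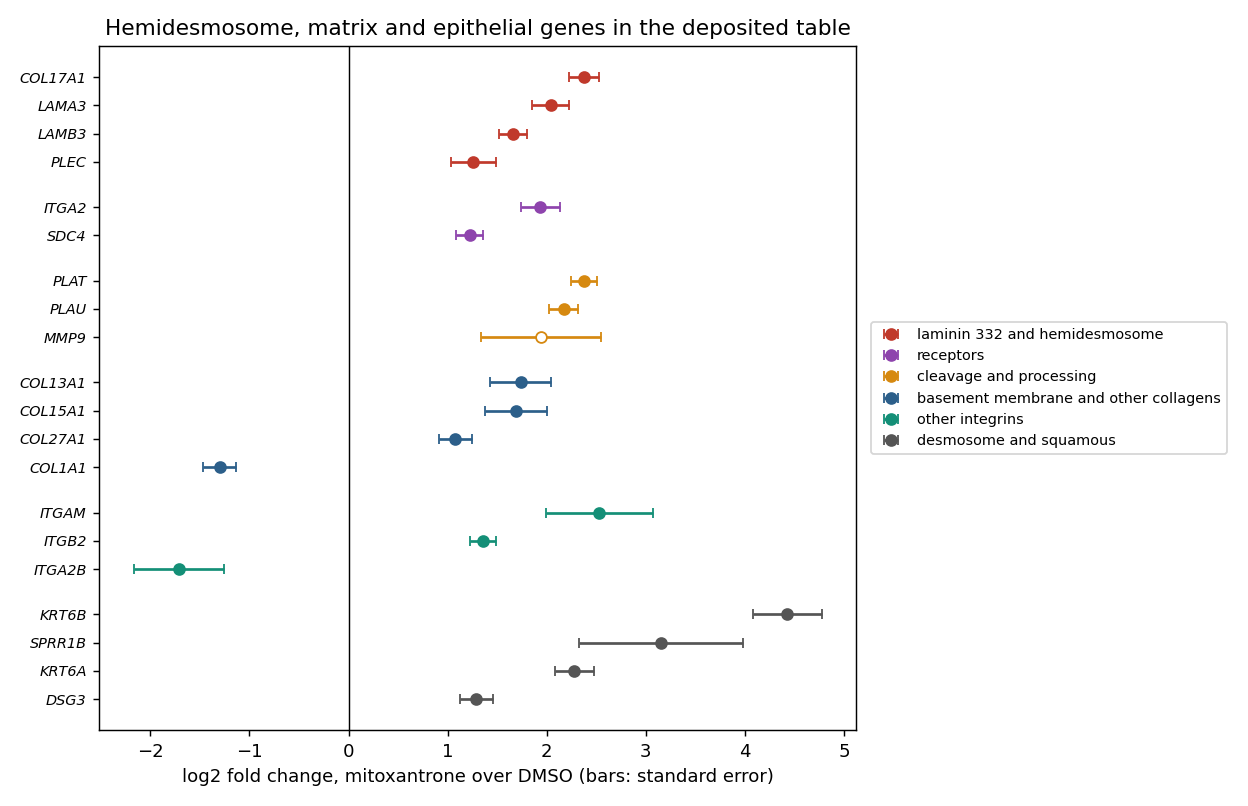
Log2 fold change of mitoxantrone over DMSO, with its standard error as a bar, for named genes of the hemidesmosome, receptor, processing, basement membrane, collagen, integrin, desmosome and squamous lists. MMP9 is an open marker because it was not called, and HPN is left out because its DMSO libraries held 0 reads. KRT6B at 4.43 is the highest of the plotted genes, COL17A1 at 2.38 the highest of the members, and COL1A1 at -1.30 and ITGA2B at -1.71 lie below 0.

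Among 23 other collagen genes 3 were listed. COL13A1, like COL17A1 a transmembrane collagen, rose by a log2 fold change of 1.74, and COL27A1, a fibrillar collagen, by 1.08 (SE 0.31 and 0.17, edgeR quasi-likelihood adjusted p = 0.001 and 0.00025). COL1A1, the alpha 1 chain of collagen I, fell by 1.30 on the log2 scale (SE 0.17, edgeR adjusted p = 3.8e-05). Size factors over the listed genes ended the calls of COL13A1 (edgeR adjusted p = 0.079 with TMM and 0.58 with DESeq2 factors) and COL27A1 (0.48 and 1).

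Of 19 other integrin genes 3 were listed, all of them chains best known from blood cells. ITGB2 rose by a log2 fold change of 1.36 (SE 0.13, edgeR quasi-likelihood test, adjusted p = 3e-06), which was 0.30 with DESeq2 factors over the listed genes. ITGAM, its partner in the complement receptor Mac-1, had 11, 31 and 18 reads with mitoxantrone and 6, 1 and 5 with DMSO and rose by 2.53 (SE 0.54, edgeR adjusted p = 0.0056), which was 0.061 without mitoxantrone replicate 2, 0.076 with TMM factors, 0.28 with DESeq2 factors and 0.073 with limma on log2(FPKM + 1). ITGA2B, the platelet integrin chain, fell by 1.71 on the log2 scale (SE 0.46, edgeR adjusted p = 0.031), with adjusted p-values of 0.055 to 0.18 in fits that left out mitoxantrone replicate 2 or 3 or DMSO replicate 1 or 3. None of the 4 immune cell markers was listed, and a gene that is not listed has no level here.

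Among 16 genes of the desmosome, the cell-cell junction that also anchors keratin filaments, DSG3 was listed. This desmosomal cadherin had 18.8, 21.5 and 22.4 FPKM with mitoxantrone and 9.88, 6.38 and 10.7 FPKM with DMSO (log2 fold change 1.29, SE 0.16, edgeR quasi-likelihood adjusted p = 3.5e-05), and its call was lost with DESeq2 size factors over the listed genes (edgeR adjusted p = 1). Of 21 genes of basal and squamous epithelium 5 were listed and all 5 rose, against 56.7% called as higher over all listed genes. Their median log2 fold change was 2.28, against 1.74 over the 793 listed genes with a positive log2 fold change and 1.26 over all listed genes. KRT6B, a keratin of stressed and wounded epithelium, had 74, 87 and 82 reads with mitoxantrone and 7, 4 and 2 with DMSO (log2 fold change 4.43, SE 0.34, edgeR adjusted p = 3.1e-07). Its close paralog KRT6A had 8.19, 7.65 and 8.15 FPKM with mitoxantrone and 1.84, 2.14 and 1.21 FPKM with DMSO (log2 fold change 2.28, SE 0.19, edgeR adjusted p = 8.2e-07), and reads of this pair may have been split between the copies.

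SPRR1B, a precursor of the cornified envelope, rested on few reads, with 14, 5 and 6 with mitoxantrone and 1, 0 and 2 with DMSO. Its log2 fold change of 3.16 had an SE of 0.83 (edgeR adjusted p = 0.027), and the adjusted p was 0.053 to 0.30 in fits without mitoxantrone replicate 1, DMSO replicate 1 or DMSO replicate 3. It was 0.18 with TMM and 0.46 with DESeq2 factors over the listed genes in edgeR, and 0.058 in the DESeq2 Wald test. Of 16 genes of epithelial to mesenchymal transition only SNAI1 was listed, and it was not called (log2 fold change -1.72, SE 0.52, edgeR adjusted p = 0.071). SNAI1 was called as lower with TMM (edgeR adjusted p = 0.007) and DESeq2 factors (0.0025) over the listed genes, with limma on log2(FPKM + 1) (0.0061) or log2(FPKM + 0.1) (0.011), and in edgeR with adjustment over the listed genes alone (0.0051). In these bulk samples, fewer cells of a type and less RNA per cell cannot be told apart.

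Within 500 kb of the members 8 other genes were listed, and all 8 were called as higher, against 56.7% of all listed genes called as higher. With DESeq2 size factors over the listed genes TRAF3IP3 and G0S2 kept their calls and the other 6 lost them. Near LAMA3 these were ANKRD29, which lies 26.6 kb away and had a log2 fold change of 1.58 (SE 0.24, edgeR quasi-likelihood adjusted p = 0.00021, and 0.54 with DESeq2 factors), and CABYR at 183.9 kb with 1.13 (SE 0.21, edgeR adjusted p = 0.0013, and 0.78 with TMM or 1 with DESeq2 factors over the listed genes). Near LAMB3, TRAF3IP3 at 103.6 kb had a log2 fold change of 1.66 (SE 0.14, edgeR adjusted p = 9.5e-07) and C1orf74 at 129.8 kb had 1.34 (SE 0.14, edgeR adjusted p = 5.7e-06, and 0.49 with DESeq2 factors). These 2 genes overlap by a few bases in the deposited coordinates, and without stated strand their reads cannot be fully told apart.

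G0S2, an inhibitor of triglyceride breakdown 23 kb from LAMB3, had 10, 6 and 19 reads with mitoxantrone and 0 in each DMSO library, and was at least 13.9-fold higher against a floor of 3 reads over the DMSO group. ADORA2BP, a pseudogene at 91.9 kb, had 7, 7 and 2 reads with mitoxantrone and 0 in each DMSO library, at least 6.37-fold higher on the same floor. RP1-28O10.1, at 8.9 kb, had 5, 7 and 14 reads with mitoxantrone and 1, 1 and 3 with DMSO, and its call and that of ADORA2BP were each lost in fits without a single library (edgeR adjusted p = 0.06 to 0.37 and 0.071 to 0.086). With TMM or DESeq2 factors over the listed genes the edgeR adjusted p was 0.32 or 0.88 for RP1-28O10.1 and 0.073 or 0.14 for ADORA2BP. SH3PXD2A, a scaffold protein of podosomes 175.7 kb from COL17A1, had a log2 fold change of 1.36 (SE 0.22, edgeR adjusted p = 0.00039), and its call was lost with TMM (edgeR adjusted p = 0.11) and DESeq2 factors (1) over the listed genes. Its reads, like those of PLEC, were lowest in replicate 1 of the mitoxantrone group and in replicate 2 of the DMSO group.

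The course of each member over the 6 libraries was set against that of 564 listed genes with at least 100 mean normalized reads, by the root mean square difference of centred log2 profiles. Nearest to LAMA3 were SH3TC2 (0.097), CDH10 (0.0989) and ITGA2 (0.104). Nearest to LAMB3 were APOBEC3C (0.0615), the gene ENSG00000260912 (0.0799) and ICAM1 (0.0950), and nearest to COL17A1 were CLCA2 (0.0925), C3 (0.0994) and ARNT2 (0.10). The members were not each other's nearest: COL17A1 was at place 15 for LAMA3 (0.200), and LAMB3 was 0.308 from LAMA3 and 0.378 from COL17A1. A choice by Pearson correlation shared 1, 0 and 0 of the 3 genes for LAMA3, LAMB3 and COL17A1.

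The deposited annotation gave the 3 members 5 terms in common. One of them was hemidesmosome assembly, which PLEC carried too. Cell junction assembly held 9 listed genes, of which 8 were higher with mitoxantrone, and epidermis development held 12, of which 10 were higher. Extracellular matrix organization held 29, of which 25 were higher, and extracellular region held 144, of which 111 were higher. Of all 1305 listed genes, 793 were higher by sign. In GENCODE 29 the pseudogene RPL23AP77 lies within LAMA3 on the opposite strand, and the microRNA genes MIR4260 and MIR936 lie within LAMB3 and COL17A1 on the same strand.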

How the data were processed

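RNA of 6 NCI-H292 libraries, from poly(A) selection or ribosomal RNA removal per the labels' protocols, which name both, was read in pairs of 150 bases. The deposited table of 1305 genes holds the authors' raw read count and FPKM per gene and library, per the file headers. It also holds the authors' mean normalized count (a signal averaged over the libraries), log2 fold change, Wald score, p-value and adjusted p-value. Tools in the submitters' processing notes are HISAT2 2.0.1, HTSeq 0.6.1, DESeq2, Cufflinks 2.2.1 and cutadapt 1.9.1, with no settings. For the genome build, and for whether counting used strand, the answer is not given in the sources used.

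Size factors were solved from the deposited counts and mean normalized counts, and library totals from FPKM. The main test was edgeR 4.0.16 quasi-likelihood (R 4.3.3) on the counts, with treatment as the single term and Benjamini-Hochberg adjustment for 18313 genes, threshold 0.05. That number was recovered from the ratio of deposited p to adjusted p, which gave whole ranks within 0.02 for 71.9% of 437 ratios and at most 7.8% with any other number tried. The fit holds selected genes only, so its shared estimate of spread is that of the selection. Genes outside the list had no p-value here and counted as ranking after all listed genes. In the authors' test the last listed gene held rank 4967 of 18313. The p-values adjusted for 18313 genes can therefore be larger than in a fit of all genes, and the calls fewer. Alternatives used DESeq2 1.42.0, limma 3.58.1 on log2(FPKM + 1) or log2(FPKM + 0.1), other size factors, a minimum of 10 mean reads and libraries left out. Exact permutation tests used scipy 1.17.1. The fit was tested on simulated counts, in which most genes were unchanged, unlike in the selected table. It called 2 of 1105 unchanged genes, 59 of 100 genes with a log2 change of 1, and 91 of 100 with a log2 change of 2.

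Named genes were the members, every listed gene of the hemidesmosome, laminin, receptor, processing and basement membrane lists, the 3 largest rises and 3 largest falls of each other list, listed genes within 500 kb of a member and the 3 nearest profiles of each. Genes compared by abundance and the marker genes are named in addition. The members and lists were chosen with earlier results of these data known. Promoter sequences are RefSeq's on GRCh38.p14, matched by symbol for all 3 members. Floors cover counting error only. One further gene was left out of the lists and is not reported here.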

Additional observations from a re-analysis of the deposited data

How the results depend on the processing

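LAMA3, LAMB3 and COL17A1 kept their direction and their call in edgeR, DESeq2 or limma under all 16 alternatives. The log2 fold changes ranged from 1.05 to 2.21 for LAMA3, from 0.67 to 1.72 for LAMB3 and from 1.38 to 2.45 for COL17A1, with the lowest from DESeq2 size factors over the listed genes. In fits without 1 library they ranged from 1.87 to 2.21, 1.64 to 1.71 and 2.28 to 2.45 in the same order of genes. The number of genes called as higher, 740, became 366 with TMM factors over the listed genes and 219 with DESeq2 factors computed the same way. Over the hemidesmosome, laminin, receptor, processing and basement membrane lists together, the number called, 10, became 6 with the DESeq2 factors. With these factors the median log2 fold change of all listed genes was 0.57 (TMM) and 0.27 (DESeq2), against 1.26; the cause of the lost calls was not tested. By Pearson correlation, 1 of the 3 nearest genes was shared for LAMA3, 0 for LAMB3 and 0 for COL17A1; the cause was not tested. With the longest transcript from the downstream start as its length, LAMA3 averaged 135 FPKM with mitoxantrone. The differences between members ranged over 0.61 to 0.79 (COL17A1 minus LAMB3), 0.19 to 0.58 (LAMA3 minus LAMB3) and 0.21 to 0.41 (COL17A1 minus LAMA3) without 1 library. The deviations of same-numbered libraries from their groups had correlations of -0.46, -0.28 and 0.26. With 3 libraries per group these values cannot decide whether the numbers pair the libraries, and the labels do not say. With a replicate block 736 genes were called as higher and 463 as lower, and the members' log2 fold changes were 2.06, 1.66 and 2.38. Of 35 other named genes, 16 kept their call under every alternative that could be run for them (genes under 10 mean reads have no value with that filter), and 19 lost or gained it under at least 1. No result reversed.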
